A study of Mus musculus with 6 samples.

Results

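Squamous differentiation genes that lie outside the epidermal differentiation complex were followed in cultured mouse prostate cells with and without Rb. They were chosen by name, 10 of the 20832 genes named on the array, and comprise Tgm1, Tgm3, Cst6, Sbsn, Krtdap, Cnfn, Grhl3, Ovol1, Klk5 and Klk7. All 10 had a probe, 11 probes in all, since Tgm3 had 2. Of the 10, 4 were tested (Cst6, Sbsn, Tgm1 and Tgm3), Cnfn was seen on some arrays of each group, and the other 5 were well above background on no array.

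The tested cultures were primary prostate cells of genotype p53-/- Rb deltaf/deltaf, in which adenovirus carrying Cre had removed the floxed Rb alleles (Rb deleted, n = 3). The control cultures were p53-/- Rbf/f cells given adenovirus carrying lacZ (Rb intact, n = 3). All 6 cultures lacked p53, grew in Prostacult medium without FBS but with bFGF and bEGF, and gave RNA 48 hours after infection. Every Rb deleted culture had the Cre virus and every Rb intact culture the lacZ virus, so the vector and the deletion cannot be told apart, and the ages of the mice are not given in the sources used here. The series design describes the samples of a group as independent experiments; p-values measure the spread between those samples.

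Cornification turns the outer cells of a stratified epithelium into a dead, crosslinked sheet. Transglutaminases tie envelope proteins together, kallikreins and cathepsins process or shed the outer layers under the control of inhibitors such as cystatin M/E, and transcription factors including Grhl3 and Ovol1 start the programme. The normal prostate gland is not a squamous tissue, but prostate epithelium can take on squamous features.

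Cy3 intensities came from 1 array per sample, with 58.9% to 63.3% of probes well above background and no saturated spot. Rb deleted 2 and 3 were on a slide of their own and the other 4 arrays shared slide 1, so a comparison of the groups within a slide rests on Rb deleted 1. Rb1, the targeted gene, stood at -2.96 ± 0.03 in Rb deleted and -1.01 ± 0.02 in Rb intact cultures (SD, n = 3 each), as log2 intensity relative to the 75th percentile of the array, a scale called the level here. It fell by 1.95 ± 0.05 (SE) with a limma adjusted p of 8.76e-05, although whether its probe lies inside the deleted part was not known. The cultures are labelled prostate cells, and epithelial markers were present only in part. Cdh1, Epcam, Krt7 and Cldn4 were well above background on no array, while Cldn7, Krt14, Trp63 and Krt18 were on all 6. The prostate genes Hoxb13 and Psca were well above background on none, while all 10 mesenchymal markers were on all 6. In such bulk cultures fewer cells of a type and less RNA per cell cannot be told apart.

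Among the squamous genes, 2 of the 4 tested fell in Rb deleted cells and none rose. Over all 13729 genes tested, limma called 10.4% lower and 10.2% higher at an adjusted p under 0.05. Cst6 fell to about 50.4% of the Rb intact signal and Sbsn to 79.4%, while Tgm1 and Tgm3 did not pass the test. The median difference (Rb deleted minus Rb intact) of the 4 was -0.05 on the log2 scale, against 0.02 over all genes. By limma 0 of the 4 rose at the adjusted threshold and 1, Tgm1, did at an unadjusted p under 0.05.

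**Figure D1:**
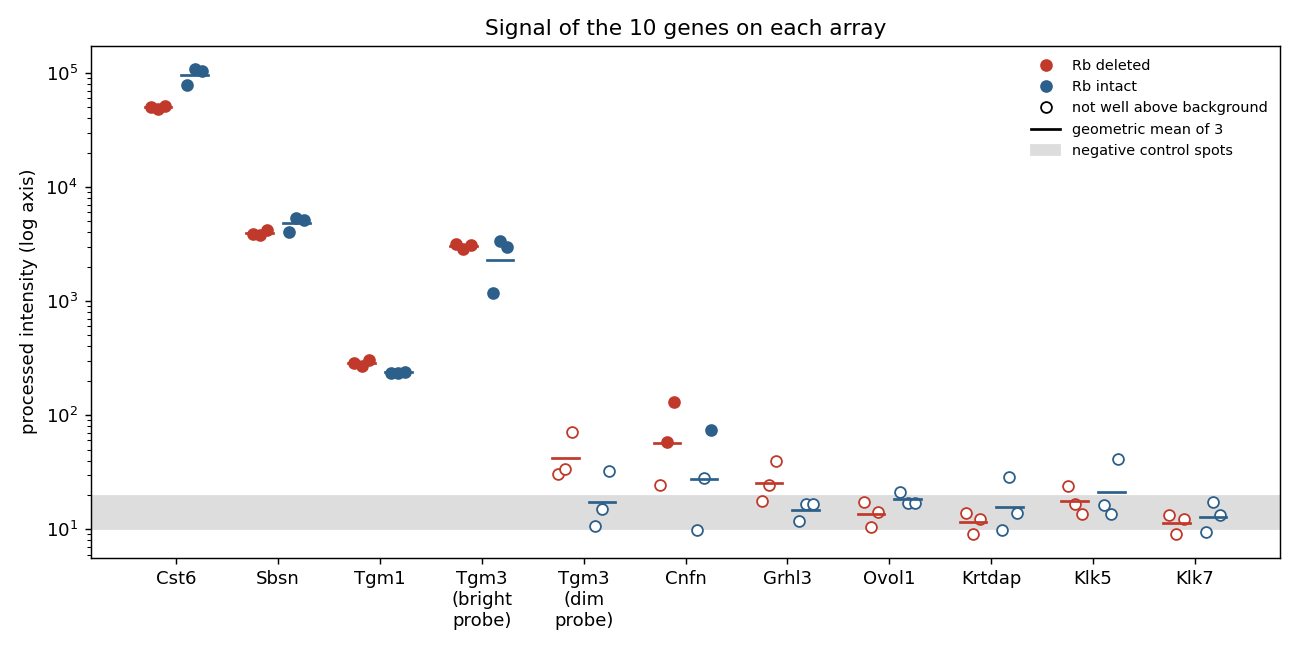
Processed intensity (log axis) of each probe of the 10 genes on each array, with Rb deleted left of Rb intact, open points for spots not well above background, lines for geometric means of 3 and a grey band from the lowest array median to the highest spot of the negative controls. Cst6 lies between 48308 and 51656 in Rb deleted cells, below the 78325 to 107873 of Rb intact cells, and Krtdap, Ovol1 and Klk7 lie in or near the band.

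Cst6 encodes cystatin M/E, a secreted inhibitor of legumain and of cysteine cathepsins, and mice without it have a cornification defect. Its probe A_52_P59206 gave processed intensities of 50252, 48308 and 51656 in Rb deleted 1, 2 and 3, against 78325, 107873 and 103928 in Rb intact 1, 2 and 3. Every Rb deleted array was below every Rb intact array, and the lowest Rb intact value was that of replicate 1. The saturation limit in the headers was 778589 on slide 1 and 778654 on slide 2, far above all 6 raw values, which ran from 38074 to 44002.5 in Rb deleted and from 61614.5 to 85370 in Rb intact cultures.

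The Cst6 level was 3.79 ± 0.04 in Rb deleted and 4.77 ± 0.14 in Rb intact cells (SD, n = 3 each). The difference was -0.99 ± 0.08 (SE, limma adjusted p = 0.000869), with a 95% interval from -1.19 to -0.79, or 1.98-fold lower. Of the 13729 genes, 218 had a difference at or below that of Cst6, Cst6 included. With slide as a block the Cst6 difference was -0.98 ± 0.13 (limma adjusted p = 0.0214). Within the first slide, where the lone Rb deleted array was assumed to vary like the Rb intact arrays, it was again -0.98 with a limma adjusted p of 0.072, so the call was lost there. Without any single array the Cst6 difference stayed between -1.07 and -0.94, and its limma adjusted p was at most 0.00823.

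Sbsn encodes suprabasin, a protein secreted by the suprabasal layers of mouse epidermis. Probe A_52_P573336 read 3901, 3823 and 4172 in Rb deleted 1, 2 and 3, against 4003, 5377 and 5178 in Rb intact 1, 2 and 3. These unscaled intensities overlapped, because Rb intact 1 was below Rb deleted 3; after each array was scaled by its 75th percentile the groups no longer overlapped.

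The scaled Sbsn level was 0.13 ± 0.03 in Rb deleted and 0.46 ± 0.12 in Rb intact cells (SD, n = 3 each). Sbsn fell by 0.33 ± 0.07 (SE, limma adjusted p = 0.0253), or 1.26-fold. The difference was -0.35 ± 0.11 with slide as a block (adjusted p = 0.18) and -0.35 within the first slide (adjusted p = 0.364), so neither fit kept the call. Leaving out Rb intact 1 kept it (-0.40 ± 0.04, adjusted p = 0.00251), whereas leaving out any of the other 5 arrays gave a limma adjusted p between 0.0781 and 0.101. Groups did not overlap for 3 of the 4 tested squamous genes, Cst6, Sbsn and Tgm1, and for 45.3% of all genes tested.

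The promoter windows of Sbsn and of Krtdap, the next gene but one on chromosome 7 with Dmkn between them, are shown because Sbsn was measured and fell while Krtdap was not detected, and both windows hold the AP-1 motif. RefSeq windows of build GRCm38.p6, from 250 bases before to 50 bases after an annotated start and read 5′ to 3′, matched 8 of the 10 genes in 9 windows. Capitals mark a match to a searched motif, and no matches overlapped. The Sbsn window is chr7:30751221-30751520, plus strand, and that of Krtdap is chr7:30787655-30787954, plus strand.
Sbsn: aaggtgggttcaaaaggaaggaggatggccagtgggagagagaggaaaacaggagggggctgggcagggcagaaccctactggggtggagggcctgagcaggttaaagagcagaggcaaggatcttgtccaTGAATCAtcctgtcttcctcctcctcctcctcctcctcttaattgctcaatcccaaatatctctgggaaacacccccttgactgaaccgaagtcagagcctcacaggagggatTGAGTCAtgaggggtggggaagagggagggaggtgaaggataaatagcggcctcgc
Krtdap: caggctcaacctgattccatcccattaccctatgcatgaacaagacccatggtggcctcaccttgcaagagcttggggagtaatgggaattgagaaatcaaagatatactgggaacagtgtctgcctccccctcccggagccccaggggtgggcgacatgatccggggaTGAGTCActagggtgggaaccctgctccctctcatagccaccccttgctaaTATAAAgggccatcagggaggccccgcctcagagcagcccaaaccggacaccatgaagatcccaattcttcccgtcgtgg
The motif TGANTCA, bound by AP-1 factors, begins 119 and 6 bases before the Sbsn start and 81 bases before that of Krtdap, where a TATAAA begins 30 bases before the start. TGANTCA was in 2 of the 9 windows and in 7.81% of all 32851 windows of this length, searched on both strands. A match describes the letters only.

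Tgm1 and Tgm3 encode transglutaminases 1 and 3, the enzymes that crosslink envelope proteins in the outer epidermis. Tgm1, by probe A_52_P627816, read 286.4, 270.9 and 306.6 in Rb deleted 1, 2 and 3, against 236, 236.3 and 238.8 in Rb intact 1, 2 and 3. All 3 Rb deleted values were above all 3 Rb intact values, before and after scaling. The level was -3.66 ± 0.0031 in Rb deleted and -3.88 ± 0.12 in Rb intact cells (SD, n = 3 each). The difference of 0.23 ± 0.07 (SE) did not pass the test (limma adjusted p = 0.0754), and its unadjusted 95% interval ran from 0.05 to 0.40. Without Rb intact 1 the Tgm1 difference was 0.29 ± 0.05 with a limma adjusted p of 0.00929, past the threshold, and with a normexp background model it was 0.09 ± 0.08 (adjusted p = 0.484). It was 0.22 both in the block fit for slide (limma adjusted p = 0.363) and on slide 1 alone (adjusted p = 0.571).

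The 2 Tgm3 probes disagreed on whether the gene was detected. Probe A_55_P2163493 read 3161, 2864 and 3078 in Rb deleted 1, 2 and 3, against 1172, 3382 and 2999 in Rb intact 1, 2 and 3. Probe A_51_P495560, matched to the same RefSeq transcript, read 30.6, 33.7 and 70.9 in Rb deleted 1, 2 and 3, against 10.6, 15 and 32.2 in Rb intact 1, 2 and 3, and was well above background on no array. Where each probe lies in the transcript was not known here, so a Tgm3 level rests on the brighter one.

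For the brighter Tgm3 probe the groups overlapped, and Rb intact 1 stood alone at the low end. Its level there lay 1.25 below the mean of Rb intact 2 and 3, an offset as large in size as that of 0.845% of all genes tested. The difference between the groups was 0.36 ± 0.34 (SE, limma adjusted p = 0.481), with a 95% interval from -0.45 to 1.17. Without Rb intact 1 the sign turned, to -0.06 ± 0.05 (limma adjusted p = 0.438). It was 0.42 both in the block fit for slide (limma adjusted p = 0.723) and on slide 1 alone (adjusted p = 0.816). Members of this enzyme family are related in sequence, and whether their probes share signal was not tested.

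A window of each gene is shown because both are tested transglutaminases whose starts hold different motifs. The Tgm1 window is chr14:55713443-55713742, minus strand, with a match to TTTNNCGC, the E2F motif, in capitals, and that of Tgm3 is chr2:130012090-130012389, plus strand, with a TATAAA in capitals.
Tgm1: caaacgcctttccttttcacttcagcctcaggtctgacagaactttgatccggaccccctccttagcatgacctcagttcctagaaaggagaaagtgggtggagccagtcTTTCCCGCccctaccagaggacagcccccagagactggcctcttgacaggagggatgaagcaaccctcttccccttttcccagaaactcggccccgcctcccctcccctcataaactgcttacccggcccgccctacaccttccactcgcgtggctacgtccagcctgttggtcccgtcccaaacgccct
Tgm3: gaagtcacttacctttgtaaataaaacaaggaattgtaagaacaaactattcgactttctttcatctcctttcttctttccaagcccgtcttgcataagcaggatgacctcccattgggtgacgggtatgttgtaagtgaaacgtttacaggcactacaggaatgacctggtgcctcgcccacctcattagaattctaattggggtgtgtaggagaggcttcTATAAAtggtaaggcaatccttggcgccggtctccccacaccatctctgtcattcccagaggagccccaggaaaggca
The E2F match begins 140 bases before that Tgm1 start, in 1 of 9 windows against 5.17% of all windows, and the second Tgm1 window holds none. TATAAA begins 28 bases before the Tgm3 start and was in 2 of the 9 windows, against 13.6% of all. The Grainyhead-like motif AACNGGTT and the Ovol motif CCGTTA were in 0 of the 9 windows, against 2.09% and 2.76% of all windows.

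Cnfn encodes cornifelin, a small protein of the cornified envelope. Its probe A_51_P351194 read 24.6, 58.7 and 131.4 in Rb deleted 1, 2 and 3, against 9.78, 28.2 and 74.1 in Rb intact 1, 2 and 3. It was well above background on 2 of 3 Rb deleted and 1 of 3 Rb intact arrays, so it was not tested, and the groups overlapped widely.

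Both transcription factors of the set were below detection. Grhl3, a Grainyhead-like activator needed for the mouse skin barrier, read 17.6, 24.4 and 39.4 in Rb deleted 1, 2 and 3, against 11.8, 16.6 and 16.7 in Rb intact 1, 2 and 3. Ovol1, a zinc finger repressor that restrains epidermal progenitors, read 17.2, 10.6 and 14 in Rb deleted 1, 2 and 3, against 21.1, 17.1 and 17.1 in Rb intact 1, 2 and 3. Every Rb deleted value of Grhl3 was above every Rb intact value. Neither gene was well above background on any array, so no difference between the groups is read from these values. Negative control spots reached at most 12.9 to 19.5 intensity units depending on the array; Grhl3 was within that range on 4 of the 6 arrays and Ovol1 on 5.

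The secreted keratinocyte protein gene Krtdap and the kallikrein genes Klk5 and Klk7, whose serine proteases cut the links between outer epidermal cells, were also undetected. Krtdap ran from 9.06 to 13.9 in Rb deleted and from 9.91 to 28.5 in Rb intact cells. Klk5 ran from 13.6 to 24.2 in Rb deleted and from 13.7 to 41.5 in Rb intact cells, and Klk7 from 9.03 to 13.5 in Rb deleted and from 9.38 to 17.3 in Rb intact cells. Klk7 lay within the negative control range on all 6 arrays, Krtdap on 5 and Klk5 on 2. When dim probes were fitted with no filter, 0 of the 7 untested probes passed limma's threshold (adjusted p from 0.211 to 0.755). An unadjusted p under 0.05 was seen for 2, that of Grhl3 and the dimmer Tgm3 probe, both higher in Rb deleted cells.

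**Figure D2:**
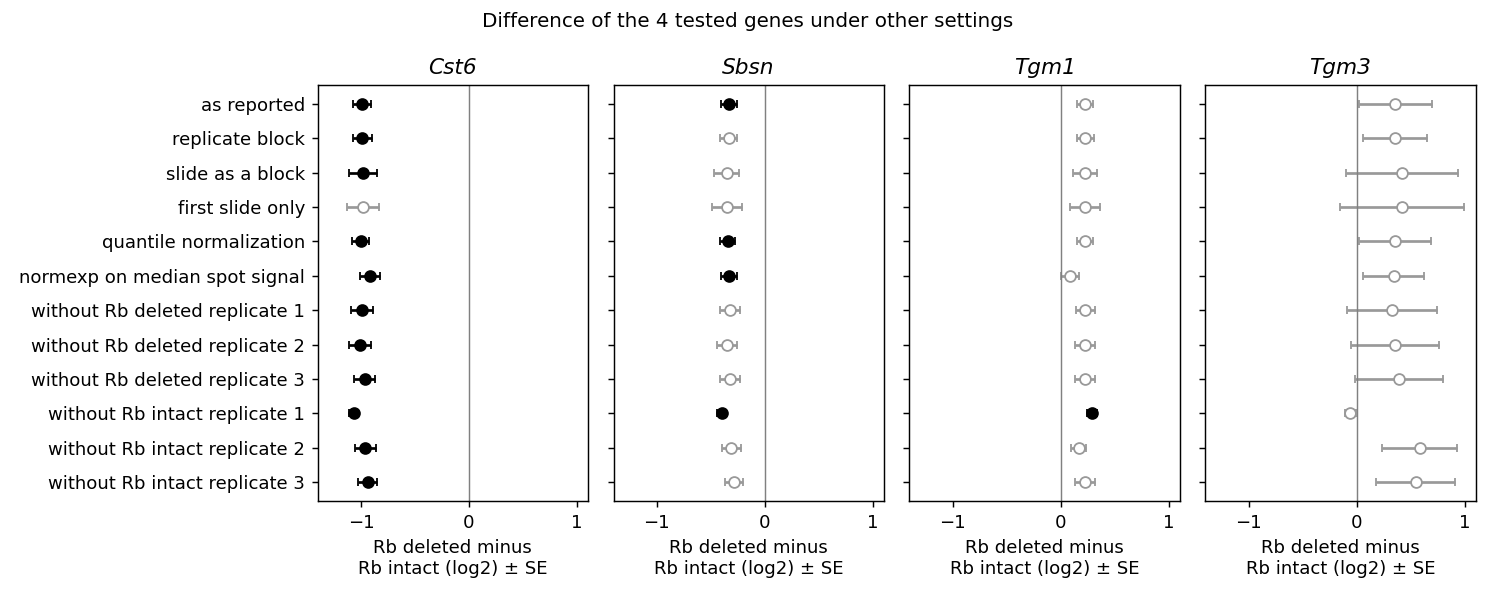
Log2 difference (Rb deleted minus Rb intact) ± SE of each tested gene, as reported and under other settings, with filled points for a limma adjusted p under 0.05. Cst6 stays between -1.07 and -0.91, and Tgm3 is at 0.36 as reported and at -0.06 without Rb intact 1. Sbsn keeps its sign throughout. Its call holds with quantile normalization, with normexp and without Rb intact 1, and is lost under the other settings drawn.

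Other genes of the cornification pathway were read from the same fit, in lists chosen with earlier results of these data known. Besides Tgm1 and Tgm3, the transglutaminase family had 2 tested genes. Tgm2, the widely expressed transglutaminase, gave -0.01 ± 0.05 (limma adjusted p = 0.867). Tgm4, the prostate transglutaminase, was well above background on 3 of 3 Rb deleted and 0 of 3 Rb intact arrays and passed the filter only through the Rb deleted arrays, so no difference is given for it. Of the family of 9 genes 3 were well above background on all 6 arrays, and limma called 0 in either direction, with 1, Tgm1, at an unadjusted p under 0.05.

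Of 13 kallikrein genes 3 were well above background on all 6 arrays, neither Klk5 nor Klk7 among them, of which 1 rose and 0 fell. Klk8, a serine protease of skin and brain, was well above background on 1 of 3 Rb deleted and 3 of 3 Rb intact arrays. It passed the filter only through the Rb intact arrays, so no difference is given for it. Klk12 rose by 0.44 ± 0.12 (SE, limma adjusted p = 0.0452), a call lost with slide as a block (0.19 ± 0.10, adjusted p = 0.363) and without any single array other than Rb deleted 1. Klk9 and Klk10 gave 0.60 ± 0.27 and 0.09 ± 0.13 (adjusted p = 0.171 and 0.644). Kallikrein genes are paralogs, and whether their probes share signal was not tested.

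Among 11 tested proteases and inhibitors of shedding, 6 fell, Cst6 among them, and 1 rose, with a median difference of -0.26. Legumain, Lgmn, a protease inhibited by cystatin M/E, fell by 0.38 ± 0.08 (limma adjusted p = 0.0176), and the lysosomal proteases Ctsd and Ctsh fell by 0.43 ± 0.07 and 0.51 ± 0.11 (adjusted p = 0.00836 and 0.0219). Ctsl, another protease that cystatin M/E inhibits, gave -0.12 ± 0.07 (adjusted p = 0.253). St14, the membrane protease matriptase, rose by 0.75 ± 0.09 (adjusted p = 0.00361). With slide as a block 1 of the 11, Cst6, fell and none rose.

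Of 20 epidermal transcription regulators 12 were well above background on all 6 arrays, of which 3 fell and 2 rose. Prdm1, a transcriptional repressor, rose by 1.15 ± 0.07 (limma adjusted p = 0.000332). The epithelial Ets factor Ehf fell by 1.64 ± 0.11 (adjusted p = 0.000459) by the probe used, but another of its probes was the brighter one when any Rb intact array was left out, and it then gave differences of -0.41 to -0.33 with adjusted p of 0.413 to 0.494. Maf, a leucine zipper transcription factor, fell by 0.63 ± 0.09 (adjusted p = 0.00555), a call lost with slide as a block (adjusted p = 0.0836). Besides Grhl3 and Ovol1, Grhl1, Zfp750, Pou2f3 and Elf3 were well above background on no array and Grhl2 on 3. With slide as a block 1 of all 13 tested rose and 2 fell.

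Of 15 barrier lipid enzymes 9 were tested and 1 fell, the lipoxygenase gene Aloxe3, by 0.66 ± 0.09 (limma adjusted p = 0.00535), a call lost with slide as a block (adjusted p = 0.0605). Of 7 tested plakin, cystatin A and scaffold genes 4 fell and none rose. They were Csta3, a stefin A protease inhibitor that fell by 1.22 ± 0.08, its relative Csta2, which fell by 0.895 ± 0.10, Cdsn, the corneodesmosome protein cut by kallikreins, which fell by 0.50 ± 0.08, and the plakin gene Evpl, which fell by 0.41 ± 0.08. In the block fit 3 of these 4 kept an adjusted p under 0.05, and Evpl did not (0.197).

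The envelope precursors of the epidermal differentiation complex, on chromosome 3, are substrates of transglutaminases. Of the 8 precursors well above background on all 6 arrays 8 fell. The other 4 tested precursors passed the filter only through the Rb intact arrays, so the filter favoured lower values in Rb deleted cells. The median difference of the 8 was -0.98, against -0.05 for the 4 squamous genes outside the complex. Ivl, the involucrin gene, fell by 2.19 ± 0.06, and Sprr1a fell by 1.02 ± 0.06, close to the size of the Cst6 difference. In the block fit for slide 7 of all 12 fell. The difference between the lists was not tested.

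**Figure D3:**
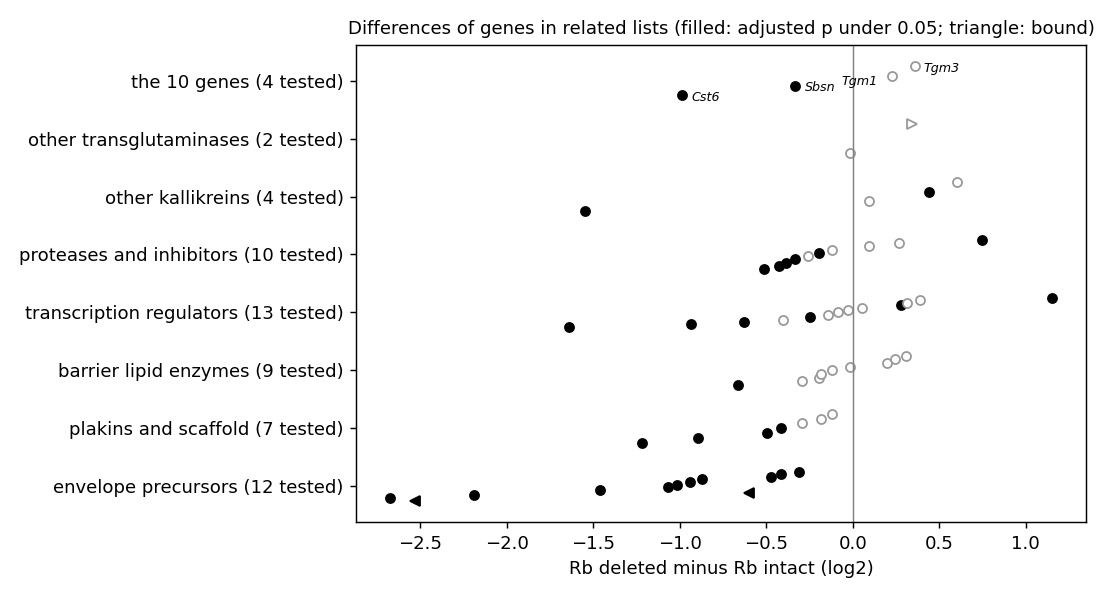
Log2 difference (Rb deleted minus Rb intact) of each tested gene in the lists named in the text, with filled points for a limma adjusted p under 0.05 and triangles for bounds. The 8 envelope precursors detected on every array lie left of 0, while the 4 tested squamous genes outside the complex lie on both sides, from -0.99 for Cst6 to 0.36 for Tgm3.

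Markers of other cells moved beside these genes. Of 6 tested basal epithelial markers 5 fell and none rose (median -0.37), although 0 were called in the block fit for slide. The integrin gene Itga6 fell by 0.57 ± 0.08 (limma adjusted p = 0.00555) and Trp63 fell by 0.25 ± 0.07 (adjusted p = 0.0492), while the basal keratin gene Krt14 gave 0.07 ± 0.14 (adjusted p = 0.731). Their summed level, in units of the array's 75th percentile, was 23.9 to 24.6 in Rb deleted and 32.6 to 39 in Rb intact cells, and most of that sum was Itga6. All 3 tested smooth muscle markers fell, with a summed level of 20.3 to 20.6 in Rb deleted and 37.2 to 43.2 in Rb intact cells, most of it Tagln, while 1 of 10 mesenchymal markers fell, with sums of 535.7 to 574.4 in Rb deleted and 567.8 to 605.4 in Rb intact cells. Of 6 tested luminal markers 1 rose and 1 fell. Of 5 general epithelial markers only Cldn7 was tested, and it rose by 0.22 ± 0.06 (limma adjusted p = 0.0483). That call was lost with slide as a block (adjusted p = 0.294). Among 5 leukocyte and endothelial markers tested, limma called 0, with 1 at an unadjusted p under 0.05. The basal markers Krt15 and Cdh3 were well above background on no array. The part of these marker differences in the Cst6 and Sbsn results was not tested.

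The gene outside the set whose profile over the 6 arrays was most like that of Cst6, after centring each on its own mean, was C1ql3, with a root mean square difference of 0.0376 on the log2 scale. For Sbsn it was the pseudogene Gpr137b-ps, at 0.0212. These are descriptions over 6 arrays that share the same 2 groups.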

How the data were processed

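Per the file headers, the authors made the deposited processed intensity values with Agilent Feature Extraction 11.0.1.1 (the submitters' processing notes name 10.7.3.1), which subtracts background and flags, as 0 or 1, spots well above background, saturated or outlying. The authors also deposited log2 values for 22164 non-control probes, which equal log2 processed intensity minus a constant per array, within 0.01 for 99.95% to 99.97% of probes. The basis of that constant is not stated. Their medians lay between -0.52 and -0.49.

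Outlying spots were left out, spots of a probe averaged, and log2 intensity shifted by each array's 75th percentile. Probes were named by RefSeq accession against GRCm38.p6 (27427 of 39429 probes); the array design used mm9, so no probe coordinates are given. A probe was kept if well above background on all 3 arrays of a group, and each gene took its brightest kept probe. Rb deleted and Rb intact arrays were fitted with limma 3.58.1 (R 4.3.3), with Benjamini-Hochberg adjustment over 13729 genes; the code was tested on simulated data. An exact permutation test of 3 against 3 arrays cannot go below p = 0.1, so none is given. Genes are said to rise or fall where that adjusted p is under 0.05. The number of arrays limits precision.

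The genes and lists were chosen with earlier results of these data known. The text names all 10 genes and, per list, up to 4 others with the smallest p and the gene nearest in profile to each changed gene; Ctsl, Krt14, Trp63 and undetected genes were named after their values were seen. Some listed genes are not reported here. Same-numbered arrays did not deviate together (correlations of deviations -0.03, -0.05 and 0.02), and the main fit treated them as unpaired. With 3 arrays per group, such correlations cannot exclude pairing by replicate number. The normexp model used median spot signal with an offset of 50; the planned version on mean signal was not run, as that column was not used here.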

Additional observations from a re-analysis of the deposited data

How the results depend on the processing

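Cst6 fell under every setting tried except within the first slide, where its sign held and its call did not. The number of squamous genes that fell was 2 as reported and 1 with no filter on dim probes, in the block fit for slide, with the replicate block, at an adjusted p under 0.01 or with at least 1.5-fold required; it was 0 within the first slide, and 1 to 2 when 1 array was left out. The number that rose was 0 as reported, 1 with array weights and 0 to 1 when 1 array was left out, the 1 being Tgm1 in both. The Tgm3 difference was 0.36 as reported, -0.032 with array weights and -0.058 to 0.58 when 1 array was left out, turning negative without Rb intact 1; the cause was not tested.

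Over all genes, 1398 rose and 1430 fell. The counts were 624 and 859 with no filter, 3419 and 2795 with array weights, 196 and 469 in the block fit for slide, 116 and 162 on slide 1 alone, 716 and 921 with the replicate block, 443 and 684 at an adjusted p under 0.01, and 266 and 540 with at least 1.5-fold required. When 1 array was left out, 470 to 2770 rose and 767 to 2395 fell, the highest of each without Rb intact 1. With the replicate block the Sbsn difference was -0.33 with a limma adjusted p of 0.0628. Signal over background limits the set, since 6 of its 10 genes could not be tested.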

Other observations

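Rb intact 1 stood apart for several genes of epithelial differentiation besides Tgm3. Relative to the mean of Rb intact 2 and 3, its level was 2.02 lower for Casp14, a caspase of cornifying cells, and 0.94 lower for Ovol2, a relative of Ovol1. Of 92 other listed genes tested, 3 lay at least 1 lower on that array, against 0.911% of all genes tested. Casp14 and Ovol2 were chosen after their values were seen, and neither passed limma's threshold between the groups.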
